A study of Mus musculus with 24 samples.

Results

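Epidermis of mice without Mad2 in the skin epithelium was followed from postnatal day 13 (P13) to postnatal day 20 (P20). The members were all samples that the labels call Mad2f/f; K14Cre+ at these ages, 2 at P13 and 2 at P20, which is 4 of the 24 samples of the series. In these mutants both alleles of Mad2l1, the gene of Mad2, were floxed, and a Krt14 promoter drove Cre recombinase, which places it in basal keratinocytes and in the outer sheath of hair follicles. Cells of other lineages in the preparation should therefore keep the gene. Cre-negative animals of the same mixed B6-129Sv strain served as controls, with 2 samples at P13 and 3 at P20. The labels describe the mutants of both ages as nude. Epidermis was peeled off the dermis after overnight trypsin, and total RNA of each sample was measured on an Illumina BeadChip array of its own. The labels do not say that each sample came from a separate animal, so the spread between samples behind the p-values may be technical. That spread, which also enters the standard errors, was estimated over the groups of all 24 arrays and not from the mutants of these ages alone.

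Mad2 is a core protein of the spindle assembly checkpoint, which holds a dividing cell in mitosis until every chromosome is attached to the spindle. Keratinocytes divide in the basal layer and at the hair bulb. They then leave the basement membrane and turn on spinous, granular and cornified layer genes in sequence. In normal mouse skin the first hair growth phase ends in the third week of life, when the lower follicle regresses and hair shaft genes are switched off.

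Values are normalized log2 intensities, on which a difference of 1 is a doubling, and each difference is P20 minus P13 with its standard error (SE, n = 2 against 2). A gene was said to rise or fall where limma's adjusted p was under 0.05 and both P20 arrays also lay on the same side of both P13 arrays. The 75th percentile of the signal lay 57.2 and 76.8 intensity units above background in the P13 mutants and 98.9 and 21.2 units above it in the P20 mutants, and between 23.3% and 32.3% of probes were detected in these 4 arrays. The second P20 mutant was the dimmest of all 24 arrays, and its chip had been deposited with the background already subtracted. The P13 arrays of both genotypes shared 1 chip and the P20 mutants lay on different chips, each beside P20 controls. Chip and age therefore cannot be told apart in any direct comparison of the 2 ages, in either genotype. Over the 2 chips of P20 the mutants divide as 1 and 1 array and the controls as 1 and 2, so a chip effect does not wholly cancel between genotypes. The count of genes whose change differed between genotypes was 1093 in the fit of all 24 arrays. With the P13 and P20 arrays alone it was 244, and 1430 on those arrays with chip as a fixed block. Over all genes the first P20 mutant correlated at 0.929 with the P20 control of its own chip and at 0.896 with the other P20 mutant. Mad2l1 lay at 5.32 and 4.92 in the P13 mutants and 4.65 and 5.39 in the P20 mutants and was detected in 0 of these 4 arrays, while it lay at 8.36 and 9.56 in the P13 controls and 6.5, 7.55 and 7.66 in the P20 controls. The mutants were below every control at both ages, and the position of the probe relative to the deleted part of the gene was not analysed here. Krt14, the basal keratin, lay at 15.49 and 15.37 in the P13 mutants and 15.28 and 15.64 in the P20 mutants. Markers of fibroblasts, vessels and mast cells were present in both genotypes at P13, so the peeled sheets held other cells than keratinocytes.

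Of 14215 genes tested, 1758 (12.4%) changed in the mutants between P13 and P20. Of these, 588 rose (4.14%) and 1170 fell (8.23%). Without any test, both P20 arrays lay above both P13 arrays for 21.3% of genes and below them for 24.7%. The falls were larger than the rises, with a median of -1.80 against 1.29, and 77 genes fell by at least 4 on the log2 scale while 7 rose by at least 3. In the controls 3451 genes (24.3%) changed over the same days, 1576 upward (11.1%) and 1875 downward (13.2%). The genes that changed the same way in both genotypes numbered 801, which was 45.6% of those changed in mutants and 23.2% of those changed in controls, and 31 changed in opposite directions. The change itself differed between mutants and controls at 1093 genes (7.69%), with the mutants' change the higher at 528 (3.71%) and the lower at 565 (3.97%), and of these 1093 genes 332 had also changed in the mutants. Much of the count rested on the first P13 mutant, and without it 627 genes changed, 82 upward and 545 downward. With each P20 array required to keep the call alone, 160 rises and 634 falls were left. The counts were 135 and 561 with chip as a random block and 17 and 341 with array weights. With the spread taken from the 4 mutant arrays alone, 126 genes passed, 1 of them upward. Scaling each array on its median in place of quantile normalization put the median of all genes at -0.203 in the mutants and gave 31 rises against 1203 falls. Directions given below are those on the quantile scale.

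Of the 12 largest rises, that of Mt4 alone differed from the controls. Mt4, a metallothionein of stratified squamous epithelia, had a normalized log2 intensity of 4.78 and 4.86 in the P13 mutants and 7.82 and 8.5 in the P20 mutants. It was detected in both P20 arrays and in neither P13 array, and it rose by 3.34 ± 0.56 (adjusted p = 0.00085), which was at least 4.81-fold. Mt4 lay at 9.2 and 9.0 in the P13 controls and 8.43, 8.34 and 9.29 in the P20 controls, where it did not pass (difference -0.41). The change of the mutants exceeded that of the controls by 3.75 (adjusted p = 0.0067). On the P13 chip the mutants lay 4.27 below the controls, and on the chips of the first and second P20 mutant they lay 0.61 and 0.31 below. The rise of Mt4 passed under every alternative computed, the only one of the 12 largest rises to do so. Mt1, a metallothionein of most tissues, lay at 15.35 and 14.55 in the P13 mutants and 13.18 and 14.74 in the P20 mutants, a difference of -0.99 (adjusted p = 0.373). Mt2, its close relative, lay at 8.4 and 7.24 in the P13 mutants and 5.86 and 8.11 in the P20 mutants, a difference of -0.84 (adjusted p = 0.498). Neither passed, the 2 P20 arrays of each lay farther apart than the difference, and both genes were named after their values were seen.

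The promoter of Mt4 is shown because this gene separated the course of the mutants from that of the controls. The window runs from 250 bases before the transcript start to 50 bases after it, at chr8:94136954-94137253 on the plus strand of GRCm38.p6, as RefSeq gives it. Capitals mark the letters TGCACNC, the core of the metal response element, here on the opposite strand at -91 to -85, and the letters TATAAA at -30 to -25.
Mt4: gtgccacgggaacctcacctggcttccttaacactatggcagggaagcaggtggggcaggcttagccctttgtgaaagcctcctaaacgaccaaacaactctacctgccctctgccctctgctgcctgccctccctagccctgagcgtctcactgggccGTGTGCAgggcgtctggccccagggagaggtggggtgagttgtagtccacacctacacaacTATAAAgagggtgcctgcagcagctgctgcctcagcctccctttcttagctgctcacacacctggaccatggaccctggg
Of 32851 such windows, 25.7% held TGCACNC or TGCGCNC on either strand and 13.6% held TATAAA on either strand, so neither match is rare.

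Dapl1, a gene of differentiating epithelial cells, lay at 5.25 and 5.73 in the P13 mutants and 9.56 and 8.27 in the P20 mutants and rose by 3.43 ± 0.72 (adjusted p = 0.00485), at least 8.11-fold. Bbox1, the last enzyme of carnitine synthesis, lay at 7.07 and 9.24 in the P13 mutants and 11.7 and 11.24 in the P20 mutants and rose by 3.32 ± 0.59 (adjusted p = 0.00137). Clca1, a secreted regulator of chloride channels, lay at 4.58 and 6.23 in the P13 mutants and 8.39 and 8.57 in the P20 mutants and rose by 3.08 ± 0.48 (adjusted p = 0.000437). In each of these 3 genes both P20 arrays were above both P13 arrays with no overlap, and the second P13 array was the higher of its pair. Bbox1 and Clca1 also rose in the controls, by 2.51 and 1.56, and the difference from the controls did not pass for Dapl1, Bbox1 or Clca1. Slurp2, a secreted protein of the Ly6 family, rose by 3.03, and Stfa2l1, a stefin A cysteine protease inhibitor, by 2.82. Stfa2l1 lay at 6.74 and 7.98 in the P13 mutants and 10.78 and 9.57 in the P20 mutants, against 4.41 to 4.93 in all 5 control arrays of these ages, so it was above the controls at P13 already. Cxcl9, a chemokine induced by interferon gamma, rose by 3.0 from 6.03 and 7.79 to 9.91 and 9.92. The other members of the 12 largest rises were Tanc1, a synaptic scaffold protein (2.87), the calcium-binding Tesc (2.67, at least 3.89-fold), Rapgef4, an exchange factor activated by cyclic AMP (2.49), and the transcripts LOC230622 (3.09) and OTTMUSG00000007855 (2.65, at least 4.08-fold). Another probe of Rapgef4 differed by 0.04, so its rise rests on 1 probe. Of 31 named rises 7 also passed with median scaling, which were Mt4, Bbox1, Clca1, Slurp2, Rapgef4, Lce1m and Atp5j. Mt4, Bbox1, Clca1 and OTTMUSG00000007855 passed in all 4 fits that left out 1 mutant array. Without the first P13 mutant the adjusted p was 0.065 for Dapl1, 0.0629 for LOC230622, 0.0519 for Slurp2, 0.0827 for Tesc and 0.0534 for Rapgef4, and Cxcl9, Tanc1 and Stfa2l1 also lost the call without the first P20 mutant, with adjusted p up to 0.373, 0.337 and 0.211 over the 4 fits.

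**Figure D1:**
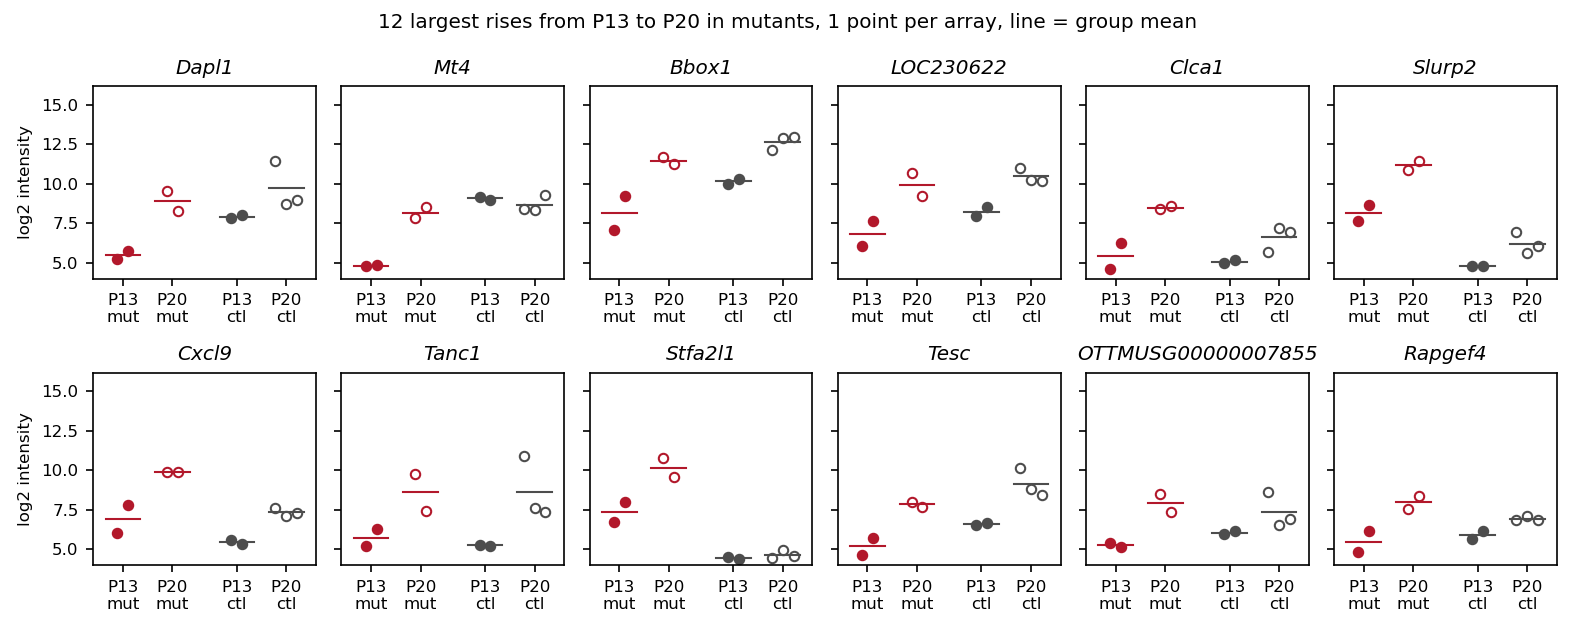
Normalized log2 intensity of the 12 largest rises, 1 panel per gene, with 1 point per array for mutants (red) and controls (grey), filled at P13 and open at P20, and a line at each group mean. In every panel both P20 mutant arrays lie above both P13 mutant arrays, and Mt4 is the gene whose P13 mutants, at 4.78 and 4.86, lie farthest below the P13 controls, at 9.2 and 9.0.

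Fewer genes of the cornified envelope and barrier lists rose in mutants than in controls. The same held over all genes, of which 4.14% rose in mutants and 11.1% in controls. Of 29 spinous and granular layer genes tested 3 rose and 0 fell, with a median difference of 0.11, against 16 and 1 in the controls with a median of 1.20. In the test of the difference, the change of the mutants was the lower at 8 of the 29 and the higher at 1. Over all genes the medians were -0.005 in mutants and -0.022 in controls. The mean level of these 29 genes in mutants stood 1.33 above the controls on the P13 chip. On the chips of the first and second P20 mutant it stood 0.29 and 0.6 above them. Krt1, the suprabasal keratin, rose by 1.69 ± 0.42 from 12.68 and 13.97 to 15.57 and 14.46 (adjusted p = 0.0159). Krt77, another suprabasal keratin, rose by 2.44, and Flg2, a filaggrin family protein of the granular layer, by 2.13. Krt10, the partner of Krt1, lay at 15.28 and 15.42 in the P13 mutants and 15.25 and 15.67 in the P20 mutants (adjusted p = 0.789). Dmkn, a secreted protein of the upper layers, lay at 15.47 and 15.56 in the P13 mutants and 15.32 and 15.59 in the P20 mutants (adjusted p = 0.903). Neither passed, and the P20 arrays overlapped the P13 arrays in both. Both probes lay near the top of the scale, where a rise is hard to see. On each mutant array the raw intensity of Krt10 was at least 0.652 of that of the brightest probe, and that of Dmkn at least 0.81. Of 17 genes of the late cornified envelope (Lce) family, 2 rose in the mutants (median 0.41) and 11 in the controls (median 2.72). In the test of the difference, the change of the mutants was the lower at 3 of the 17. Lce1m rose by 1.89 from 12.98 and 13.94 to 15.17 and 15.53, and Lce1e by 1.62. Lce1c lay at 14.97 and 15.3 in the P13 mutants and 15.56 and 15.6 in the P20 mutants, while the controls went from 12.04 and 11.91 to 15.5, 15.04 and 14.97. Its difference of 0.45 in mutants did not pass, and the change of the mutants minus that of the controls was -2.75 (adjusted p = 3.78e-05). Lce1b lay at 14.55 and 15.01 in the P13 mutants and 15.29 and 15.01 in the P20 mutants and did not pass either, and its change minus that of the controls was -2.84 (adjusted p = 0.0106). Both probes were bright in mutants already at P13, with at least 0.43 (Lce1c) and 0.307 (Lce1b) of the intensity of the brightest probe, so the top of the scale left less room for a rise than the controls showed. Members of this family are alike in sequence, and shared signal between their probes was not tested.

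The genes of barrier lipid synthesis followed the same order: 2 of 22 rose in mutants (median 0.26) and 15 in controls (median 1.38), and the change was smaller in mutants at 11. Cers3, the ceramide synthase of ultra-long acyl chains, rose by 1.36 and Dgat2, a triglyceride synthase, by 1.3. Elovl4, which elongates very long fatty acids, lay at 14.84 and 14.67 in the P13 mutants and 14.55 and 14.86 in the P20 mutants (adjusted p = 0.934). Elovl1, an elongase of the same family, lay at 13.55 and 13.7 in the P13 mutants and 13.95 and 14.004 in the P20 mutants (adjusted p = 0.521). Neither passed, and for both the change was smaller than in the controls, with differences of -1.52 and -2.23 (adjusted p = 0.0152 and 0.00378). Elovl4 had at least 0.377 of the intensity of the brightest probe in the P13 mutants, so its room for a rise was limited too. Of 10 kallikreins and Spink inhibitors, proteases of shedding and their brakes, only Spink14 rose in mutants (1.1, named after its value was seen), against 6 in controls. The change was smaller in mutants at 4 of the 10. Of 12 stefin A and Serpinb3 inhibitors only Stfa2l1 rose, with a median of 0.81 over the list. The mean level of these 12 stood 3.73 above the controls on the P13 chip and 4.18 and 3.94 above them on the chips of the first and second P20 mutant. The Lce mean stood 4.90 above the controls at P13 and 1.58 and 3.45 above them at P20. The barrier lipid mean stood 1.85 above the controls at P13 and 0.11 and 0.68 above them at P20. For the kallikreins and Spink inhibitors the mean stood 2.99 above the controls at P13 and 0.45 and 1.4 above them at P20. Without the first P13 mutant the adjusted p was 0.137 for Lce1m, 0.0723 for Cers3 and 0.113 for Dgat2. Krt1 and Flg2 lost the call without that array and without the first P20 mutant, Krt77 and Lce1e lost it in 3 and in all 4 of the fits without 1 mutant array, and Spink14 passed only without the first P20 mutant.

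**Figure D2:**
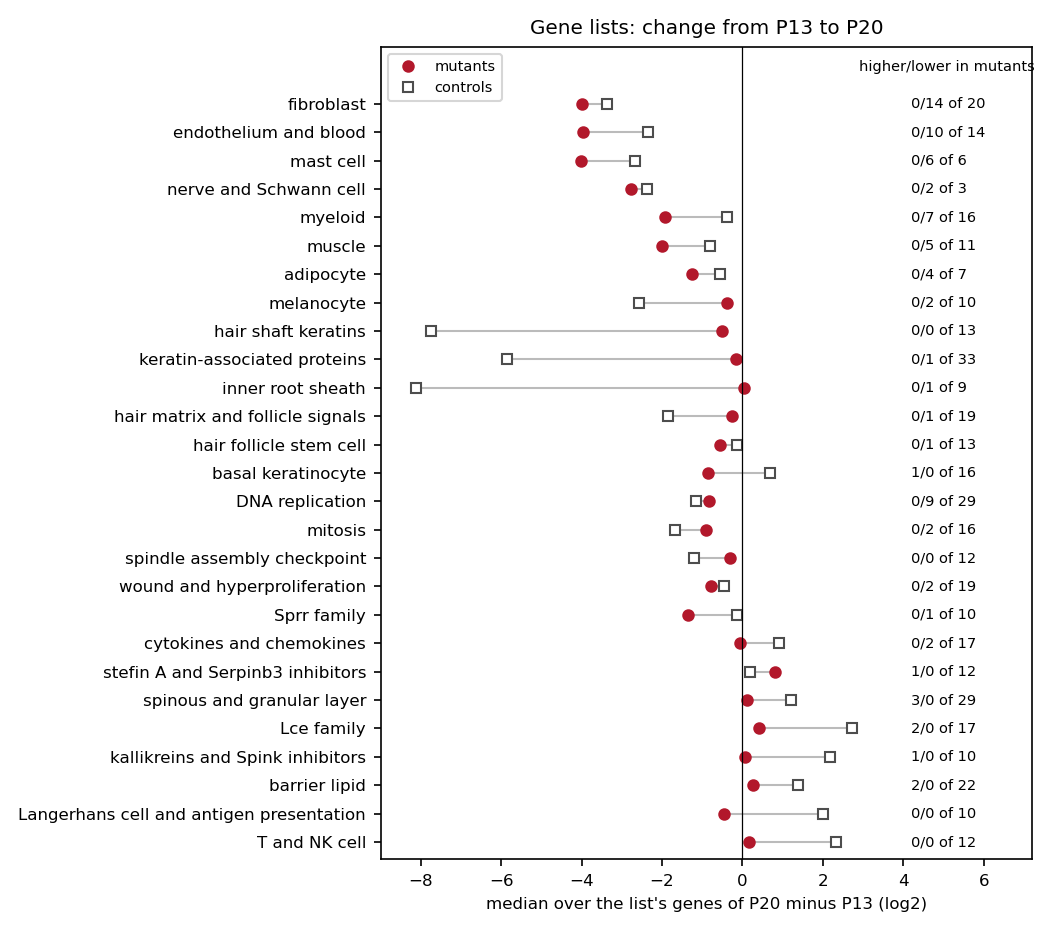
Median difference from P13 to P20 (log2) over the genes of each list in mutants (red circles) and controls (open squares), with the number of genes that rose and fell in mutants among those tested at the right. The fibroblast, endothelium and mast cell lists lie lowest in mutants, at -4.0, -3.96 and -4.02, and the hair shaft list lies at -0.52 in mutants and -7.75 in controls.

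The hair genes that controls switch off in this week were low in mutants at both ages. Of 13 hair shaft keratins 0 changed in mutants (median -0.52) and 13 fell in controls (median -7.75), and the change differed at 11 of them. The mean level of the list was 6.09 and 5.53 in the P13 mutants and 5.31 and 5.04 in the P20 mutants, against 12.14 and 12.29 in the P13 controls and 7.08, 5.81 and 5.76 in the P20 controls. Every mutant array was below every P13 control array, and the mutants lay close to the P20 controls of the subtracted chip. Of 33 keratin-associated proteins, which fill the hair shaft, 1 fell in mutants and 28 in controls, and of 9 inner root sheath genes 1 fell in mutants and 7 in controls. Krt71, a keratin of the inner root sheath, lay at 8.83 and 8.04 in the P13 mutants and 6.52 and 4.71 in the P20 mutants and fell by 2.82 ± 0.88 (adjusted p = 0.0462), while the controls fell by 9.34. Krtap17-1, a keratin-associated protein, fell by 1.76 in mutants and by 7.84 in controls. Both stood far below the controls at P13. Of 19 genes of the hair matrix and its signals, 14 fell in controls and 1 in mutants, Nkd1, an inhibitor of Wnt signalling (by 1.48). Of 13 stem cell markers of the follicle 1 fell, the secreted Dkk3 (by 2.02), and it fell by 2.29 in controls. Nkd1 and Dkk3 were named after their values were seen. Krt71 passed in 1 of the 4 fits without 1 mutant array and Nkd1 only without the second P20 mutant, whereas Krtap17-1 and Dkk3 passed in all 4.

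Padi1, D730001G18RIK and Mab21l4 rose in mutants and fell in controls. Padi1, an enzyme that turns arginine into citrulline in cornifying cells, lay at 7.98 and 9.27 in the P13 mutants and 9.75 and 10.999 in the P20 mutants, and at 12.77 and 12.85 in the P13 controls and 6.17, 4.8 and 5.61 in the P20 controls. It rose by 1.75 in mutants (adjusted p = 0.0283) and fell by 7.29 in controls, so that mutants were below the controls at P13 and above them at P20. The difference of the changes was 9.04 (adjusted p = 6.3e-07). The transcript D730001G18RIK rose by 1.71 in mutants and fell by 4.55 in controls, and Mab21l4 rose by 1.54 and fell by 2.62. The differences of the changes were 6.26 and 4.17 (adjusted p = 5.67e-08 and 0.000265). The first of these rises passed in all 4 fits without 1 mutant array. Those of Padi1 and Mab21l4 were lost without the first P13 mutant and without the second P20 mutant, with adjusted p up to 0.361 and 0.289.

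**Figure D3:**
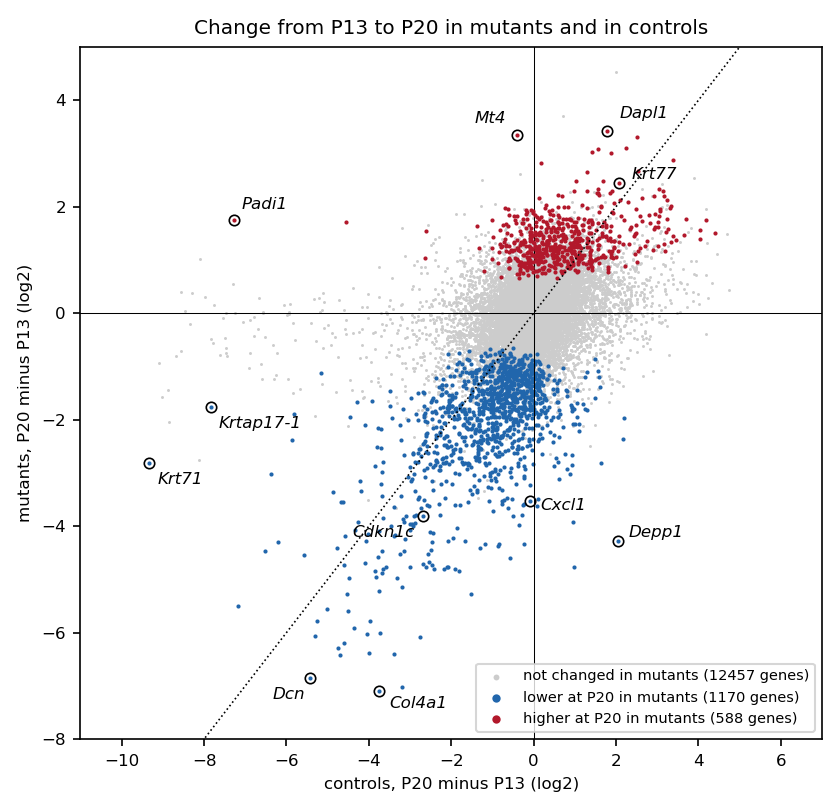
Difference from P13 to P20 in controls (horizontal axis, log2) and in mutants (vertical axis, log2), 1 point per gene, coloured by whether it rose (red), fell (blue) or did not pass (grey) in mutants, with a dotted line of equal change. Krt71 and Krtap17-1 lie far to the left, with falls of 9.34 and 7.84 in controls, and Depp1 lies low in mutants and to the right of 0 in controls.

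Among the falls that departed most from the controls were those of Depp1, C3, Smoc1 and Sectm1b. Depp1, a target of FOXO factors, lay at 10.84 and 8.35 in the P13 mutants and 4.65 and 5.99 in the P20 mutants, and at 6.78 and 6.67 in the P13 controls and 9.57, 9.21 and 7.58 in the P20 controls. At P13 both mutants were above the controls, and at P20 both were below all 3. Depp1 fell by 4.27 ± 0.66 (adjusted p = 0.00042), at least 9.46-fold, while it rose by 2.06 in controls, and the difference from the controls was -6.33 (adjusted p = 0.000409). C3, the central protein of complement, lay at 9.64 and 9.18 in the P13 mutants and 6.18 and 4.81 in the P20 mutants and fell by 3.91, with a difference from the controls of -4.86 (adjusted p = 0.000711). Smoc1, a matricellular protein, and Sectm1b, an immune ligand, fell by 2.35 and 2.81 in mutants and rose by 2.18 and 1.63 in controls. These 4 falls passed in all 4 fits without 1 mutant array. All 4 genes were lower at P20 together with the fibroblast and blood vessel lists described below, and the part of those cells in the falls was not tested.

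Cxcl1, Il19, Lcn2 and Defb4, genes of inflamed or injured skin, fell from P13 to P20, while no other tested gene of the cytokine and wound lists did. Cxcl1, a chemokine that attracts neutrophils, lay at 10.65 and 9.5 in the P13 mutants and 6.02 and 7.06 in the P20 mutants, against 4.58 to 5.16 in the 5 control arrays. It fell by 3.53 ± 0.60 (adjusted p = 0.00102) and stayed above every control array of both ages. The controls did not pass, and the difference of the changes was -3.44 (adjusted p = 0.0176). Il19, a cytokine of the IL-10 family, lay at 9.45 and 9.61 in the P13 mutants and 6.03 and 6.59 in the P20 mutants and fell by 3.22 ± 0.93 (adjusted p = 0.0329). Lcn2, an iron-sequestering antimicrobial protein, fell by 2.36 and Defb4, a beta-defensin, by 1.65. Each of these 3 genes was higher at P20 than in any control array of either age. Over the same arrays 48 of the 77 genes of the fibroblast, vessel, fat, muscle, mast cell, nerve and myeloid lists fell and 0 rose, and the part of those cells in the 4 falls was not tested. Of 17 cytokines and chemokines 2 fell and 0 rose, with a median of -0.07, and over all genes 8.23% fell. Ccl27a, a chemokine of keratinocytes, lay at 10.27 and 11.94 in the P13 mutants and 12.87 and 12.6 in the P20 mutants (adjusted p = 0.136). Il18, an epidermal cytokine, lay at 9.42 and 10.99 in the P13 mutants and 12.24 and 11.18 in the P20 mutants (adjusted p = 0.2). Neither passed, although both P20 arrays were above both P13 arrays in each. Of 19 wound and hyperproliferation genes 2 fell, Lcn2 and Defb4, with a median of -0.78, again beside 8.23% of all genes. Krt16, a keratin of stressed epidermis, lay at 15.59 and 15.44 in the P13 mutants and 15.2 and 15.04 in the P20 mutants (adjusted p = 0.707). Krt17, another such keratin, lay at 15.39 and 15.39 in the P13 mutants and 14.83 and 15.3 in the P20 mutants (adjusted p = 0.361). Neither passed, and both probes lay near the top of the scale at P13. Of 10 small proline-rich (Sprr) genes of the cornified envelope, Sprr2e alone fell, by 1.94, and it was named after its value was seen. The mean level of the wound list stood 2.95 above the controls on the P13 chip and 2.9 and 3.15 above them on the chips of the P20 mutants, and the Sprr mean stood 4.36 above them at P13 and 3.31 and 3.39 at P20. Of 3 neutrophil genes 1 fell, Retnlg, a resistin-like secreted protein (by 2.64, named after its value was seen). Of 21 interferon response genes Cxcl9 alone rose. The median of that list was -0.18, and its mean level was 7.36 and 8.71 in the P13 mutants and 7.61 and 8.27 in the P20 mutants. Cxcl1 passed in all 4 fits without 1 mutant array. Il19 and Sprr2e passed in 0 of them, Defb4 in 1, Retnlg in all but that without the first P13 mutant, and Lcn2 lost the call without the first P13 mutant and without the second P20 mutant.

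The 12 largest falls included genes known from the dermal matrix, from vessels and from mast cells. Col4a1, a chain of the type IV collagen of basement membranes, lay at 12.16 and 11.49 in the P13 mutants and 4.64 and 4.82 in the P20 mutants. It was detected in both P13 arrays and in neither P20 array, and it fell by 7.09 ± 0.39 (adjusted p = 1.94e-08), at least 44.4-fold. The partner chain Col4a2 lay at 11.59 and 10.68 in the P13 mutants and 4.84 and 4.62 in the P20 mutants and fell by 6.4 ± 0.38 (adjusted p = 4.29e-08), at least 27.5-fold. Col4a1 lay at 11.93 and 11.83 in the P13 controls and 7.6, 8.66 and 8.12 in the P20 controls, and Col4a2 at 11.22 and 10.98 in the P13 controls and 7.29, 8.13 and 7.73 in the P20 controls. In both genes the P13 mutants overlapped the P13 controls, and the P20 mutants were below all 3 P20 controls. In bulk RNA, fewer cells of a type and less RNA per cell cannot be told apart. The controls fell by 3.75 and 3.38, and the differences of the changes were -3.34 and -3.02 (adjusted p = 0.00113 and 0.00192). Col4a5 and Col4a6, chains of the same protein family named after their values were seen, differed by -0.43 and -0.21 and did not pass (adjusted p = 0.675 and 0.874). Neither was detected in the P13 mutants.

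Col4a1 and Col4a2 are read in opposite directions from 1 shared region, and their windows are shown for that reason. The starts lie 21 bases apart on chromosome 8 of GRCm38.p6 in RefSeq. The Col4a1 window is chr8:11312777-11313076 on the minus strand and the Col4a2 window is chr8:11312555-11312854 on the plus strand, each 300 bases long and written 5′ to 3′ on its own strand. Capitals mark the 78 bases that both windows hold, which are each other's reverse complement.
Col4a1: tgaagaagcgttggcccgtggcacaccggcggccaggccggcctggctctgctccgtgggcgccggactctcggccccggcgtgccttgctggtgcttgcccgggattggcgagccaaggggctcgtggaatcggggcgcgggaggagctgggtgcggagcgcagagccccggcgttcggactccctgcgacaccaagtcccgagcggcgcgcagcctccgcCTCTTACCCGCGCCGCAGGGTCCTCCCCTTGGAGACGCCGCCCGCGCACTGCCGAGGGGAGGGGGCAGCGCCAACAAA
Col4a2: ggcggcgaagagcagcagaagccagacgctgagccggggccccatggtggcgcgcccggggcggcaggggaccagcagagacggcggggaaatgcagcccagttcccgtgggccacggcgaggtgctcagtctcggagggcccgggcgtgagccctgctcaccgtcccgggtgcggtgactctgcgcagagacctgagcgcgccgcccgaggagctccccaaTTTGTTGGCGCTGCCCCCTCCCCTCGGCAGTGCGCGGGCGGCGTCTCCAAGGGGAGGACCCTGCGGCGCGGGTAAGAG
The higher P13 value was in the same array for both genes, and neither gene was detected in either P20 mutant.

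Dcn, the collagen-binding proteoglycan decorin of fibroblasts, lay at 13.57 and 13.72 in the P13 mutants and 6.1 and 7.47 in the P20 mutants and fell by 6.86 ± 0.91 (adjusted p = 9.28e-05). It fell by 5.42 in the controls too, and the difference did not pass (adjusted p = 0.544). Col6a1, a collagen VI chain, lay at 11.61 and 11.55 in the P13 mutants and 4.99 and 6.02 in the P20 mutants and fell by 6.08, at least 37.5-fold. Its fall was larger than in the controls, with a difference of -3.32 (adjusted p = 0.0121). The 12 largest falls also held Bgn, the proteoglycan biglycan (by 6.2), Loxl1, an enzyme of elastin cross-linking (by 6.38), Adamts2, which trims procollagen (by 6.06), Htra3, a secreted protease (by 6.01), Aqp1, a water channel of vessels (by 6.29), Plvap, a protein of the capillary wall (by 6.03), Cma2, a chymase (by 6.42), and the transcript SCL0001849.1_2273 (by 7.03). Each of the 12 passed under every alternative that could be computed for it. Of 20 fibroblast genes 14 fell and 0 rose in mutants (median -4.0), and 16 fell in controls (median -3.37). The mean level of the list was 9.49 and 9.64 in the P13 mutants and 5.7 and 5.94 in the P20 mutants, and 10.02 and 9.57 in the P13 controls and 7.63, 6.24 and 5.89 in the P20 controls. Col6a3, another collagen VI chain, fell by 5.77, from 11.39 and 11.86 to 5.86 and 5.84. Fbln1, a matrix glycoprotein, lay at 11.54 and 11.85 in the P13 mutants and 11.19 and 10.12 in the P20 mutants (adjusted p = 0.179). Col3a1, the collagen III chain, lay at 6.71 and 7.04 in the P13 mutants and 4.6 and 5.73 in the P20 mutants (adjusted p = 0.0678). Neither passed. Of 34 collagen chains, gathered by name after the values were seen, 10 fell and 0 rose. Another probe of Col6a3 differed by 0.03 and one of Dcn by -0.07, and neither passed 4.83 in any of the 4 mutant arrays. Another probe of Htra3 differed by -1.36.

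**Figure D4:**
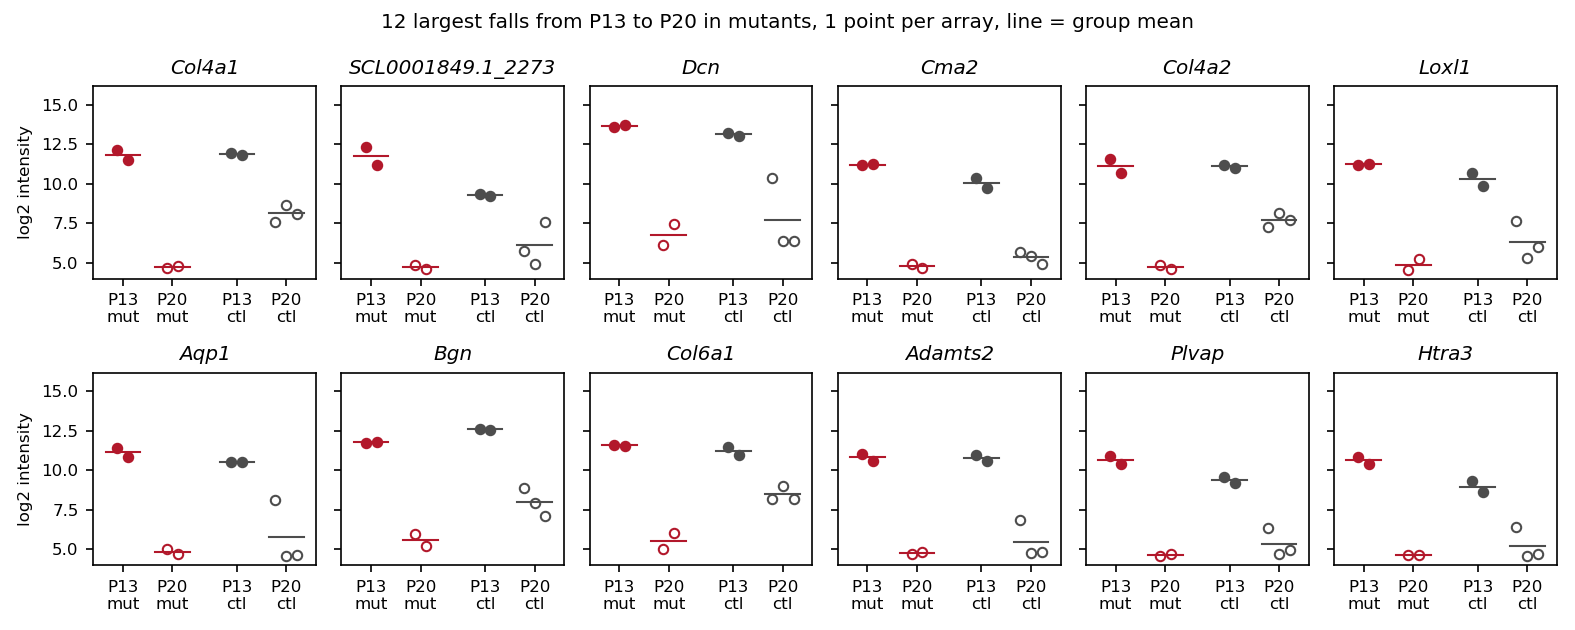
Normalized log2 intensity of the 12 largest falls, 1 panel per gene, with 1 point per array for mutants (red) and controls (grey), filled at P13 and open at P20, and a line at each group mean. The P20 mutants of Col4a1 lie at 4.64 and 4.82, below the 3 P20 controls at 7.60, 8.66 and 8.12, and the P13 mutants at 12.16 and 11.49 lie beside the P13 controls.

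Genes of other cell types of the peeled sheet fell as well. Over the fibroblast, vessel, fat, muscle, mast cell, nerve and myeloid lists together, 48 of 77 genes tested fell and 0 rose. The gap from the P20 controls depended on the chip. On the chips of the first and second P20 mutant, the mutant mean minus the control mean was -1.93 and -0.12 for fibroblasts. It was -1.89 and -0.34 for endothelium and blood, -2 and 0.36 for muscle, and -1.78 and -1.05 for nerve. For fat it was -0.56 and 0.33, for mast cells 0.23 and 0.4, and for myeloid genes -0.3 and 0.24. Of 14 genes of endothelium and blood 10 fell (median -3.96). Esam, Cldn5 and Emcn, proteins of endothelial junctions and surface, fell by 5.78, 4.96 and 4.81, and each fell in controls too. Emcn fell more than in controls, with a difference of -2.91 (adjusted p = 0.00121), from a P13 level 1.86 above that of the P13 controls. Hba-a1, an alpha globin gene, lay at 13.28 and 10.52 in the P13 mutants and 8.16 and 8.71 in the P20 mutants (adjusted p = 0.0583). Hbb-b1, a beta globin gene, lay at 12.58 and 10.42 in the P13 mutants and 9.13 and 6.84 in the P20 mutants (adjusted p = 0.283). Neither passed, and the first P13 mutant was the highest of the 4 mutant arrays in both. Each of the 6 mast cell genes fell. Tpsb2, a mast cell tryptase, lay at 10.43 and 9.28 in the P13 mutants and 4.63 and 4.53 in the P20 mutants, and at 6.27 and 5.98 in the P13 controls and 4.8, 4.42 and 4.58 in the P20 controls. It fell by 5.27 ± 0.33 (adjusted p = 6.92e-08), at least 11.3-fold, from a P13 level above that of the P13 controls, and the difference of the changes was -3.74 (adjusted p = 8.94e-05). Mcpt4 and Cma1, chymases, fell by 4.98 and 4.0, at least 9.22- and 5.04-fold, and Cpa3, the mast cell carboxypeptidase, by 3.21. Hdc, which makes histamine, lay at 12.91 and 11.06 in the P13 mutants and 7.22 and 8.68 in the P20 mutants and fell by 4.04, and its P13 mutants were above the P13 controls, at 7.38 and 7.21. The tryptase Tpsab1 lay at 9.55 and 5.54 in the P13 mutants and 4.63 and 4.7 in the P20 mutants, and the first P13 mutant was far above the second. The mean of the list was 9.93 and 8.67 in the P13 mutants and 5.08 and 5.4 in the P20 mutants, and 7.66 and 7.38 in the P13 controls and 4.85, 4.93 and 5.06 in the P20 controls. Hdc lost the call without the first P13 mutant (adjusted p = 0.12), and Tpsab1 lost it without that array and without either P20 mutant.

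Of 16 myeloid genes 7 fell and 0 rose (median -1.93). Lyz1, a lysozyme, lay at 11.69 and 11.03 in the P13 mutants and 8.27 and 6.11 in the P20 mutants and fell by 4.17 ± 0.90 (adjusted p = 0.00617), but its probe carries the name Lyz in the files and may read Lyz2, whose own probe did not pass (adjusted p = 0.0886). C1qc, a subunit of the complement starter C1q, lay at 8.69 and 8.99 in the P13 mutants and 6.11 and 4.93 in the P20 mutants and fell by 3.32. C1qb, another subunit, lay at 9.67 and 9.58 in the P13 mutants and 6.85 and 7.0 in the P20 mutants and fell by 2.7. In both, the P20 arrays were below the P13 arrays with no overlap. Mrc1, the mannose receptor of macrophages, fell by 3.02, from 9.09 and 9.16 to 6.05 and 6.15. Laptm5, a lysosomal protein of blood cells, fell by 1.8 in mutants and rose by 1.25 in controls, with a difference of -3.05 (adjusted p = 0.00225). C1qa and Fcer1g, an Fc receptor chain, fell by 2.17 and 2.14, and these 3 genes were named after their values were seen. Cd68, a lysosomal marker of macrophages, lay at 8.29 and 7.85 in the P13 mutants and 7.33 and 6.76 in the P20 mutants, and Csf1r, the receptor of their growth factor, at 7.07 and 6.61 in the P13 mutants and 6.86 and 6.79 in the P20 mutants. Neither passed (adjusted p = 0.0894 and 0.982). The mean of the list was 8.39 and 8.19 in the P13 mutants and 6.63 and 6.35 in the P20 mutants, and 7.32 and 6.86 in the P13 controls and 6.93, 6.1 and 6.12 in the P20 controls. Fibroblast and vessel genes fell over the same arrays, and their part in these falls was not tested. Mrc1 passed in all 4 fits without 1 mutant array, Laptm5 in all but that without the first P13 mutant, Lyz1 and C1qc in 2, C1qa and Fcer1g in 1, and C1qb in 0.

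Of 7 adipocyte genes 4 fell, among them Cfd, the complement factor adipsin (by 4.12), Lpl, lipoprotein lipase (by 2.29), the hormone gene Adipoq (by 2.08) and the lipid droplet gene Cidec (by 0.91). Plin4, a lipid droplet coat protein, lay at 8.53 and 7.38 in the P13 mutants and 7.1 and 6.38 in the P20 mutants (adjusted p = 0.337). Lipe, hormone-sensitive lipase, lay at 7.4 and 6.95 in the P13 mutants and 7.1 and 7.67 in the P20 mutants (adjusted p = 0.78). Neither passed. Of 11 muscle genes 5 fell, among them Tagln of smooth muscle (by 1.1, named after its value was seen). Myh11 and Acta2, of smooth muscle, fell by 3.36 and 3.01 in mutants and by 4.87 and 6.37 in controls, and the change was smaller in mutants for both (differences 1.51 and 3.36, adjusted p = 0.00475 and 0.0203). Des, the muscle filament desmin, fell by 2.63 and Acta1, skeletal actin, by 2.95, while Mylpf and Myl1, myosin light chains, did not pass (adjusted p = 0.318 and 0.225). Of 3 nerve and Schwann cell genes 2 fell: the adhesion gene Ncam1 (by 2.77) and the neurotrophin receptor gene Ngfr (by 2.08). Pmp22 lay at 9.54 and 9.28 in the P13 mutants and 7.03 and 5.49 in the P20 mutants (adjusted p = 0.0605), and another probe of Ncam1 differed by 0.51. Pigment cell genes showed a smaller fall than in controls at 5 members. Of 10 melanocyte genes 2 fell in mutants (median -0.39) and 8 in controls (median -2.59). Mlana, a melanosome protein, lay at 9.66 and 8.97 in the P13 mutants and 7.28 and 7.58 in the P20 mutants, and at 11.61 and 11.12 in the P13 controls and 6.05, 4.9 and 5.67 in the P20 controls, and its fall of 1.89 in mutants was smaller than that of the controls by 3.94 (adjusted p = 0.00304). Sox10, a master factor of pigment and Schwann cells, fell by 2.03. Dct, an enzyme of melanin synthesis, lay at 12.02 and 12.05 in the P13 mutants and 11.28 and 9.86 in the P20 mutants (adjusted p = 0.323). Ednrb, an endothelin receptor, lay at 10.85 and 10.19 in the P13 mutants and 9.07 and 9.02 in the P20 mutants (adjusted p = 0.0953). Neither passed. Cfd, Adipoq, Myh11, Acta2, Des and Ncam1 passed in all 4 fits without 1 mutant array. Sox10 and Tagln lost the call without the first P13 mutant (adjusted p = 0.0652 and 0.173), Lpl also without the first P20 mutant, Cidec also without the second, and Acta1, Mlana and Ngfr passed in 1 fit.

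A part of the DNA replication genes fell in each genotype. Of 29 DNA replication genes 9 fell and 0 rose in mutants (median -0.84), and 14 fell in controls (median -1.17), with a difference at 0 of them (limma, adjusted p under 0.05). Subunits of the MCM helicase, which unwinds DNA at the fork, were among the falls. Mcm6 lay at 9.09 and 9.31 in the P13 mutants and 7.65 and 6.81 in the P20 mutants and fell by 1.97 ± 0.43 (adjusted p = 0.0062). Mcm7 lay at 8.1 and 8.05 in the P13 mutants and 6.93 and 5.25 in the P20 mutants and fell by 1.99. Mcm5 lay at 10.55 and 10.61 in the P13 mutants and 8.29 and 9.16 in the P20 mutants and fell by 1.86, and Mcm3 fell by 1.75, from 7.05 and 6.93 to 5.54 and 4.95. On the probes used, the P20 mutants were below the P13 mutants in each, with no overlap. Other probes of Mcm6 differed by -1.09 and -0.57, and on the latter the 2 ages overlapped. The other 5 that fell, given after their values were seen, were Rrm2, a subunit of the enzyme that makes deoxynucleotides (by 1.67), the ligase gene Lig1 (by 1.57), the flap nuclease gene Fen1 (by 1.46), Uhrf1, which helps to copy DNA methylation (by 1.34), and Mcm4 (by 1.33). Orc6, of the origin recognition complex, lay at 9.47 and 9.52 in the P13 mutants and 8.81 and 9.09 in the P20 mutants (adjusted p = 0.319). Rrm1, the partner subunit of Rrm2, lay at 9.1 and 9.29 in the P13 mutants and 8.6 and 8.54 in the P20 mutants (adjusted p = 0.356). Neither passed. Lig1 passed in all 4 fits without 1 mutant array, and Mcm6 in all but that without the second P20 mutant (adjusted p = 0.0532). Mcm3, Mcm5 and Mcm7 passed in 1 of the 4, and so did Rrm2, Fen1 and Uhrf1, while Mcm4 passed in none.

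The promoters of the 4 largest MCM falls are shown because each holds at least 1 of a set of 4 words, with no word in all 4. Windows run as for Mt4, in GRCm38.p6 from RefSeq, at chr1:20820263-20820562 (minus strand), chr8:75109259-75109558 (plus strand), chr1:128359656-128359955 (minus strand) and chr5:138171834-138172133 (minus strand). Capitals mark TTTCCCGC, TTTGGCGC, TTTCGCGC or TTTGCCGC on either strand, letters that E2F factors are known to bind, and matches on opposite strands overlap in Mcm5 and Mcm6.
Mcm3: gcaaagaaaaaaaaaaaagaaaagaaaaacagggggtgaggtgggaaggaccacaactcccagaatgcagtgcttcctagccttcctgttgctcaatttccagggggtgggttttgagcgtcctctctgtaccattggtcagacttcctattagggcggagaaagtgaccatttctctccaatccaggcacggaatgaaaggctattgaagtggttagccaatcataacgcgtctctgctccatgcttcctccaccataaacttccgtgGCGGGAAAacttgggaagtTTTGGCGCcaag
Mcm5: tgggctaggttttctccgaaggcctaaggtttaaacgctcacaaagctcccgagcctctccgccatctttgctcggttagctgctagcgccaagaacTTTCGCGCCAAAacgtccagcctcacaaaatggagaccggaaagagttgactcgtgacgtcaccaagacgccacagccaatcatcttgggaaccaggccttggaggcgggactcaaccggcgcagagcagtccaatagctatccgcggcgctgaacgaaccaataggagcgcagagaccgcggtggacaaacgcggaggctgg
Mcm6: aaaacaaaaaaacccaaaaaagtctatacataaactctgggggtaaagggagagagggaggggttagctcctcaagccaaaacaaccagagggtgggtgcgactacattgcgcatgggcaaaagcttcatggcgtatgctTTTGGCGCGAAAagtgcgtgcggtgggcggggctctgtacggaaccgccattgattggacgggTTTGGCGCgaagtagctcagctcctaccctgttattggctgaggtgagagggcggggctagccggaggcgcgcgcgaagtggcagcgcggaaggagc
Mcm7: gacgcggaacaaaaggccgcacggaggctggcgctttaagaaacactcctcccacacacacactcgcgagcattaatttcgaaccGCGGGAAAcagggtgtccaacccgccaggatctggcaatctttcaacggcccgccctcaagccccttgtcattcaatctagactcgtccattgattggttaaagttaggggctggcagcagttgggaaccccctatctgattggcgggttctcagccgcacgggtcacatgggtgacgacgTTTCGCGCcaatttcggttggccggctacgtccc
At least 1 of these 4 words stood in 2.26% of all 32851 windows. It stood in a window of 6 of the 8 changed replication genes that have one (Mcm3, Mcm5, Mcm6, Mcm7, Lig1 and Uhrf1), and of 4 of the 16 that did not change and have one. These are counts of genes, and a gene can have several windows. Counted by window, as the 2.26% is, it stood in 6 of 13 windows of the changed genes and 4 of 16 of the others. Mcm4, which also fell, is not among the 6 genes. Changed and unchanged genes were split by the calls in these same data, and binding by E2F factors was not tested.

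Of 16 mitosis genes 2 fell in mutants (median -0.92), against 11 in controls (median -1.67). The change differed between genotypes at 0 of the 16 (limma, adjusted p under 0.05). Cdk1, the kinase that starts mitosis, lay at 8.57 and 8.42 in the P13 mutants and 6.97 and 7.18 in the P20 mutants and fell by 1.42 ± 0.44 (adjusted p = 0.0433), and Cenpf, a kinetochore protein, fell by 1.06. Cdca8, of the chromosomal passenger complex, lay at 10.18 and 10.19 in the P13 mutants and 8.82 and 9.67 in the P20 mutants (adjusted p = 0.278). Prc1, a bundler of the central spindle, lay at 11.08 and 11.29 in the P13 mutants and 9.77 and 10.81 in the P20 mutants (adjusted p = 0.35). Neither passed. Of 12 genes of the spindle assembly checkpoint, Mad2l1 among them, 0 changed in mutants and 6 fell in controls. The change differed between genotypes at 1 of the 12. Over all genes 8.23% fell in mutants, and 3725 of 14215 had an unadjusted limma p under 0.05 there. Of 7 Cdk inhibitors 1 rose, 1 fell and 5 did not pass in mutants. Cdkn1c (p57) lay at 9.83 and 9.1 in the P13 mutants and 5.57 and 5.75 in the P20 mutants and fell by 3.81 ± 0.50 (adjusted p = 8.38e-05), at least 8.65-fold, and by 2.68 in controls. Cdkn2c (p18) rose by 1.07, from 7.82 and 8.37 to 8.97 and 9.36. Cdkn1a (p21), a target of p53, lay at 12.8 and 12.66 in the P13 mutants and 13.35 and 13.52 in the P20 mutants, with both P20 arrays above both P13 arrays, and missed the threshold (difference 0.71 ± 0.23, adjusted p = 0.052). Cdkn2b (p15) lay at 8.49 and 8.93 in the P13 mutants and 10.75 and 9.56 in the P20 mutants (adjusted p = 0.12). Of 31 p53 targets 1 rose, Perp, a desmosome protein (by 1.64), and 1 fell, Eda2r, a receptor of ectodysplasin (by 1.2), with a median of 0.05. Cdkn1c passed under every alternative computed. Cdk1 and Cenpf passed in 0 of the 4 fits without 1 mutant array and Perp in 1, and Cdkn2c and Eda2r were lost without the first P13 mutant and without the second P20 mutant.

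The lists of housekeeping, stress and other genes are given here beside the 12.4% of all genes that changed in mutants. Of 59 cytosolic ribosomal protein genes 4 rose and 1 fell (median -0.04). Rpl24 lay at 11.09 and 11.17 in the P13 mutants and 12.69 and 12.26 in the P20 mutants and rose by 1.35 ± 0.26 (adjusted p = 0.00237). Its change exceeded that of the controls by 1.83 (adjusted p = 0.00423). Rpl7a, Rps7 and Rpl31 rose by 1.96, 1.06 and 0.84, and Rpl13a fell by 1.12. Of 80 respiratory chain genes 6 rose and 3 fell (median 0.16), with Ndufb4 of complex I and Atp5j of ATP synthase at rises of 1.5 and 1.45, and Cox6a2 and Cox6b2, tissue-restricted subunits of cytochrome oxidase, at falls by 1.46 and 1.35. Cox4i1, of the same complex, fell by 0.80, and like Rpl31 it was named after its value was seen. Of 13 heat shock genes 2 fell, the chaperone genes Hspa8 (by 1.06) and Hsph1 (by 1.18), and 1 rose, Dnajb1 (by 0.77), but another probe of Hspa8 differed by 1.34. Of 12 sebaceous gland genes 2 fell, Soat1, which esterifies cholesterol (by 2.0), and the adipogenic factor gene Pparg (by 1.67), and 1 rose, Acsbg1, an acyl-CoA synthetase (by 1.11). Other probes of Soat1 differed by -0.12 and -0.73, and on both the P20 mutants overlapped the P13 mutants. Of 16 basal keratinocyte genes 1 rose, the transcription factor gene Sox7 (by 1.06, named after its value was seen). No member passed in mutants in the lists of cholesterol synthesis (22 genes), the integrated stress and unfolded protein response (17), Nrf2 targets (14), immediate early genes (11), the circadian clock (12), the proteasome (33), Langerhans cells and antigen presentation (10) and T and NK cells (12). In the controls 8 of the Langerhans and 9 of the T and NK genes rose, and the change was smaller in mutants at 2 and 5 of them. Rpl24 and Ndufb4 passed in all 4 fits without 1 mutant array. Every other gene named for a change in these lists lost the call without the first P13 mutant, with adjusted p from 0.138 (Atp5j) to 0.46 (Hsph1) as the highest over the 4 fits for Rpl7a, Rps7, Rpl13a, Atp5j, Soat1, Pparg, Acsbg1, Hsph1, Hspa8, Dnajb1, Cox6a2 and Cox6b2.

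The levels at other ages place the P13 values, which were used to choose these genes, so they are given without a test. In 11 of the 12 largest rises both P13 mutants lay below both mutant arrays of P3 and in 11 below both of P6, and in all 12 of the largest falls both P13 mutants lay above both arrays of P3 and of P6. Both P20 mutants were above both P3 mutants in 5 of the 12 rises and above both P6 mutants in 4. They were below both P3 mutants in 9 of the 12 falls and below both P6 mutants in 2. Mt4 lay at 6.6 and 6.45 in P3 and 6.83 and 7.77 in P6 mutants, so P13 was the lowest of these 4 ages in mutants. Dapl1 lay at 9.91 and 9.54 and 8.13 and 10.09, near its P20 level. Cxcl1 lay at 4.65 and 4.82 in P3 and 7.52 and 6.4 in P6 mutants, with its highest level of these ages at P13. Il19 lay at 5.1 and 4.85 in P3 mutants and at 10.61 and 6.54 in P6 mutants, so 1 of the P6 arrays was as high as P13. Depp1 lay at 4.66 and 4.71 and 4.93 and 4.77, and Tpsb2 at 4.46 and 4.78 and 4.63 and 4.99, both far below P13. Col4a1 lay at 8.8 and 8.65 in P3 and 5.86 and 5.94 in P6 mutants, while the P6 controls averaged 12.50. All P13 arrays shared a chip that held no other age. The P13 controls on that chip lay at 9.2 and 9.0 for Mt4, at 5.12 and 4.62 for Cxcl1 and at 6.27 and 5.98 for Tpsb2. For Col4a1 they lay at 11.93 and 11.83, beside the P13 mutants at 12.16 and 11.49. The part of the chip in the P13 values was not tested.

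**Figure D5:**
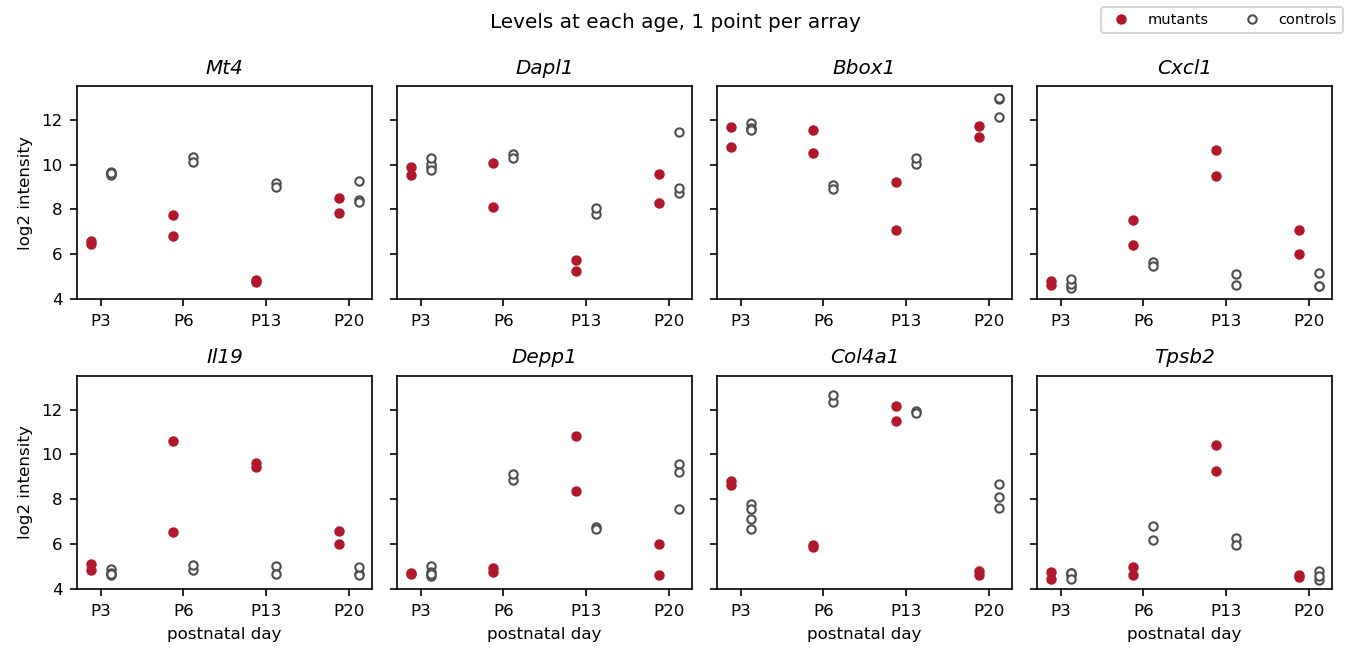
Normalized log2 intensity of 8 named genes at P3, P6, P13 and P20, spaced evenly, with 1 point per array for mutants (red, filled) and controls (open). Mt4 is lowest in mutants at P13, Cxcl1, Depp1 and Tpsb2 are highest there, and Col4a1 in mutants is high at P13 and lowest at P20.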

How the data were processed

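Mutant and control epidermis was measured on 24 one-colour Illumina arrays, 45281 probes each. The authors deposited raw bead intensity per probe, with detection p-values on some arrays and, per the file headers and the values, the fraction 1 minus that p-value on others. Their normalized log2 values, made with limma per the submitters' processing notes, served as an alternative. The number of per-sample columns not used was 1 (bead numbers of an adult array).

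Intensities were background-corrected with normexp from the detection p-values (offset 16), quantile normalized and taken to log2 in limma 3.58.1 (R 4.3.3). A probe stayed in where 2 or more arrays detected it at p under 0.01, which left 20431. The brightest probe stood for each of 14215 genes, and names came from the files, updated through RefSeq synonyms. The fit held 1 mean per group over all 24 arrays (12 residual degrees of freedom), so other groups share the estimate of the spread. Benjamini-Hochberg adjustment ran over all genes.

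Where no array of a group detected a probe, the fold is a lower limit: the bright group's mean against the higher of the lowest detected signal and the probe's own signal on each dim array. The number of arrays limits the precision.

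The members and the 41 gene lists were chosen with earlier results of these data known. The text names Mad2l1, the 12 largest rises and falls, up to 4 changed and 2 unchanged members per list with at least 2 changed genes, and, among genes changed in mutants, the 5 largest differences from controls in each direction. A few genes that meet this rule are not reported here, and list counts leave them out. Other names are marked as chosen after their values were seen. Alternatives covered background, scaling, filters, probe choice, chip and replicate blocks, array weights and left-out arrays.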

Additional observations from a re-analysis of the deposited data

Results flagged for a closer look

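The change from P13 to P20 differed between mutants and controls at 1093 genes in limma's test of the difference. Each value below is the change of the mutants minus that of the controls on the log2 scale, from that test. The genes are those named by the rule given above that passed it and changed in the mutants. The value was positive for Padi1 (9.04), Krt71 (6.52), D730001G18RIK (6.26), Krtap17-1 (6.08), Mab21l4 (4.17), Mlana (3.94), Mt4 (3.75), Acta2 (3.36), Rpl7a (2.58), Rpl24 (1.83) and Myh11 (1.51). Krt71, Krtap17-1, Mlana, Acta2 and Myh11 fell in both genotypes, by more in controls. The value was negative for Depp1 (-6.33), C3 (-4.86), Smoc1 (-4.54), Sectm1b (-4.44), SCL0001849.1_2273 (-3.84), Tpsb2 (-3.74), Cxcl1 (-3.44), Col4a1 (-3.34), Col6a1 (-3.32), Ngfr (-3.17), Col4a2 (-3.02), Emcn (-2.91), Plvap (-1.98) and Dgat2 (-1.85). Of these, SCL0001849.1_2273, Tpsb2, Col4a1, Col6a1, Col4a2, Emcn and Plvap also fell in controls, by less, and Dgat2 rose in both genotypes, by more in controls. On the P13 chip the mutants stood above the controls by 3.73 for Tpsb2, 2.49 for SCL0001849.1_2273, 1.86 for Emcn and 1.28 for Plvap. On the chips of the first and second P20 mutant, mutant minus control was -0.17 and 0.04 for Tpsb2 and -1.83 and -0.1 for Plvap. Plvap was detected in 0 P20 mutants and 1 P20 control, so its signal was near the floor there. Laptm5 (-3.05) and Fcer1g (-2.86), named after their values were seen, also passed that test and changed in the mutants.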

How the results depend on the processing

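Of 65 recomputed counts of changed genes, 41 stayed within 1.5 times the reported value. The number changed in mutants, 1758 as reported (588 higher, 1170 lower), was 1045 (487 and 558) for probes detected in at least 12 arrays, 593 (86 and 507) with P13 and P20 arrays alone, 126 (1 and 125) with the 2 mutant groups alone, 696 (135 and 561) with chip as a random block, 358 (17 and 341) with array weights and 794 (160 and 634) where each P20 array alone had to keep the call. Median scaling gave 1234 (31 and 1203). In controls, 3451 as reported, these settings gave 1846 (P13 and P20 arrays), 1675 (control groups alone), 1739 (random block), 5603 (weights) and 6270 (median scaling, 282 higher and 5988 lower, with the median of all genes at -0.928). The count that differed between genotypes, 1093 as reported (528 and 565), was 2215 with the random block and 662 with weights. With P13 and P20 arrays alone it was 244, and 1430 on those same arrays with chip as a fixed block. Median scaling turned its split to 764 and 114, and the filter on detection in both arrays of a mutant group to 351 and 588. Leaving out the chips with background already subtracted, an alternative chosen after seeing the data, gave 4401 (2041 and 2360) in mutants and 2415 for the difference, and the P20 and adult groups then had fewer arrays. The cause was not tested for the other settings.

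Leaving out 1 array at a time gave 627 (without the first P13 mutant, 82 higher and 545 lower) to 2240 (without the first P20 mutant, 992 and 1248) in mutants. It gave 1747 (without the second P13 control) to 5152 (without the first P20 control, which shared a chip with the first P20 mutant) in controls, where 1936 passed without the first P13 control. The difference ranged from 353 (without the second P13 control) to 1966 (without the first P20 control), with 1949 without the second P20 mutant, 476 without the first P13 mutant and 604 without the first P13 control.

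With a replicate block the counts were 1898, 3634 and 1125. Numbers are shared by label alone: the deviations of same-numbered samples correlated at -0.083 in mutants and -0.103 in controls, so they were not taken as pairs.

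Of 92 named genes that changed, 24 passed under every alternative that could be computed and 0 reversed. Of the named falls, 48 of 61 passed with median scaling. Of 30 named genes that did not pass, 15 passed under at least 1 alternative. The reversals were all among genes that did not pass. With median scaling Krt10 was -0.342, Lce1b -0.01 and Lipe -0.225. With the mean of a gene's probes Dmkn was 0.275 and Col4a6 0.057. Over the fits without 1 mutant array Mad2l1 ranged from -0.469 to 0.27, Elovl4 from -0.204 to 0.107, Csf1r from -0.249 to 0.216, Lipe from -0.078 to 0.487, Dmkn from -0.189 to 0.077, Krt10 from -0.097 to 0.322, Mt2 from -1.961 to 0.29 and Col4a5 from -1.097 to 0.231. Leaving out the subtracted chips gave 0.021 for Csf1r, -0.078 for Lipe, -0.097 for Krt10 and 0.231 for Col4a5. Signal over background limits the second P20 mutant, in which 23.3% of probes were detected.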
